A study of Mus musculus with 4 samples.

Results

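The genes described here are 10 that encode parts of the neuronal microtubule and filament skeleton, out of 43346 genes counted. They were chosen by symbol, with earlier results of these data known. They are the beta-tubulins Tubb3, Tubb2a and Tubb2b, the microtubule-binding proteins Dcx and Mapt (tau), and the stathmins Stmn2 and Stmn3. The others are the neuronal intermediate filaments Ina (alpha-internexin), Nefm and Nefl (the medium and light neurofilament chains). All 10 had UMIs (unique molecular identifiers, each standing for 1 captured RNA molecule) in all 4 libraries. The libraries were droplet single-cell libraries of the forebrain of wild-type C57BL/6J mouse embryos at E12.5, with 1 library each from the cortex (CTX) and the 3 ganglionic eminences, which are the lateral (LGE), the medial (MGE) and the caudal (CGE). Each library held tissue pooled over embryos, and no agent or transgene was used in these 4. The labels describe a sort for live cells (DRAQ5+/DAPI-), whereas the methods of the study describe a sort only for reporter mice, and how far a sort set the mix of cells was not tested. There was 1 library per region, so no test was made between regions, and intervals in square brackets are exact Poisson 95% intervals that cover counting error only. The question was in which order these genes come on from progenitors to neurons, and whether that order and the final levels were alike in the 4 regions.

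Neurons build long processes on microtubules, which are polymers of alpha- and beta-tubulin, and different beta-tubulin genes are used in dividing and in differentiating cells. Dcx and Mapt bind and stabilise the polymer, stathmins bind free tubulin and favour its disassembly, and neurofilaments fill the axon and set its calibre. In the embryonic forebrain, Tubb3 and Dcx are the usual markers of newborn neurons, and alpha-internexin is known to precede the neurofilament triplet in development.

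Tubb2a and Tubb2b are near-identical neighbours on chromosome 13, at chr13:34074274-34078007 and chr13:34126748-34130466, both on the minus strand (GENCODE M21, GRCm38). Their coding sequences have 1338 bases each and differ at 47, an identity of 96.5%. The last 90 coding bases are shown because the libraries were primed from the 3′ end of the RNA. Capitals mark the 3 bases that differ between the pair.
Tubb2a, chr13:34074468-34074557, minus strand: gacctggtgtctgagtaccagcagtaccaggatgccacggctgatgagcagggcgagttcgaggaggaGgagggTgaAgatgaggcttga
Tubb2b, chr13:34127471-34127560, minus strand: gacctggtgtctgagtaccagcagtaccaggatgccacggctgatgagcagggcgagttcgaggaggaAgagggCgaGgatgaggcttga
Within the last 600 bases of the Tubb2a transcript, 203 of 510 windows of 91 bases also occurred in Tubb2b, whereas 0 of 510 windows of Tubb2b occurred in Tubb2a. Reads from the Tubb2a end can therefore be lost or assigned to the other gene, and the Tubb2a level is the less certain of the pair.

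The other members lie apart, except the neurofilament pair. Nefl (chr14:68083863-68089095, plus strand) lies within the span of Nefm (chr14:68082590-68124846, minus strand), and their annotated exons share 1108 bases, 32.8% of the Nefl exon bases. The counting was not stated to use strand, so some reads of one may have been given to the other. Tubb3 (chr8:123411424-123422015, plus strand) lies within a longer gene model of the same strand, Gm20388. Mapt (chr11:104231390-104332090, plus strand) overlaps the antisense Gm11659, and the start of Ina (chr19:47014698-47025327, plus strand) overlaps Nt5c2 on the opposite strand by 456 bases. Stmn2 (chr3:8509360-8561606, plus strand), Stmn3 (chr2:181306459-181314500, minus strand) and Dcx (chrX:143855842-143933311, minus strand) overlap no other gene of that annotation.

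Promoter sequence (the 250 bases before the start, RefSeq, GRCm38.p6) was at hand for 5 members, and 3 are shown because they hold the 6 letters CANNTG, the E-box that basic helix-loop-helix factors of neurogenesis are known to bind. Both strands read the same in this motif. Capitals mark it.
Stmn3, chr2:181314501-181314750, minus strand: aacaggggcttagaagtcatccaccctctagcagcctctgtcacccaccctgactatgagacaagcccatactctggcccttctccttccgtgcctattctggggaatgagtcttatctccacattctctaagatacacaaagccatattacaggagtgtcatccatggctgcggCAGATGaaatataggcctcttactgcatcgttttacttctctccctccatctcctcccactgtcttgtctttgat
Ina, chr19:47014431-47014680, plus strand: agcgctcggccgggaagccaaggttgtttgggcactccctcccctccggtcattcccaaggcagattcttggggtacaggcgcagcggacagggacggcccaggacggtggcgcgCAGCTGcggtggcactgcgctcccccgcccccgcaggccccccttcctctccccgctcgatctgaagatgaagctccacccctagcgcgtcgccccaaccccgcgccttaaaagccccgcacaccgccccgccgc
Tubb2a, chr13:34078009-34078258, minus strand: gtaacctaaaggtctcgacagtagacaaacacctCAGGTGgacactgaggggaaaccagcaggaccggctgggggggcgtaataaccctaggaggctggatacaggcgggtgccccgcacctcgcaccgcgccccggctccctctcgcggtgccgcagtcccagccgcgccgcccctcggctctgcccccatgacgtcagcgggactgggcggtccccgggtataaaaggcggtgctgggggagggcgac
CANNTG stood in 66.2% of 32851 promoters of the same length, so 1 match says little about a gene. Tubb3 and Dcx had 0 matches in their windows. The G+C content was 48.8% for Stmn3, 70.8% for Ina and 68.4% for Tubb2a, beside a median of 52.4% over all promoters.

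Cells were placed on 4 stages by gates on ln(1 + UMIs per 10000). High-Nes cells, the progenitors, had Nes above 1.5. Cycling low-Nes cells had at least 1 UMI of the proliferation gene Mki67 and were at or below 1.5 for Nes and Dcx. Cycling high-Dcx cells had Mki67 and Dcx above 1.5, and postmitotic cells had 0 UMIs of Mki67 and Dcx above 1.5. Numbers of high-Nes cells were 883 (CTX), 578 (LGE), 512 (MGE) and 163 (CGE), and those of postmitotic cells 641, 1511, 1792 and 2077. The cells that passed both the Nes and the Dcx limit, 17, 73, 24 and 16 in the same order, were left out. The gates define themselves with Dcx, Nes and Mki67, so these 3 genes were given as levels without a test, and the tests cover the other 9 members. Levels are counts-per-million (CPM), the UMIs of a gene scaled to a fixed total of UMIs over the summed cells. An Mki67 of 0 UMIs can also be a missed transcript. A low Nes can be one too, so cycling low-Nes cells can include progenitors, and that stage may be mixed. Median depths differed between stages, at 8418 to 9902 UMIs in high-Nes cells and 6078 to 7805 in postmitotic cells.

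The libraries matched their labels by marker genes: Emx1 was at 191 CPM in CTX, Nkx2-1 at 788 CPM in MGE, Nr2f2 at 586 CPM in CGE and Ebf1 at 399 CPM in LGE. After filtering, 16159 of 24193 barcodes were kept, 3193 to 4753 per library, with median depths of 6945 to 8251 UMIs. Cells with endothelial, mesenchymal or microglial genes numbered 6 to 45 per library. The libraries shared 34 kept barcode sequences.

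In progenitors, Tubb2b, Tubb3 and Stmn3 RNA exceeded free RNA in all 4 libraries, and Ina and Nefl did so in 0 of 4. Dcx did so in 0 of 4 too, but cells with Dcx above 1.5 were left out of the high-Nes stage. The gate thus held Dcx low there, and its comparison with free RNA is not a result about progenitors. Barcodes with at least 50% globin UMIs, taken as red blood cells that lack neuronal RNA, served as the measure of free RNA (156, 59, 53 and 17 barcodes in CTX, LGE, MGE and CGE). Tubb2b was counted at 15.9, 16.6, 16.5 and 23.2 UMIs per high-Nes cell in the same order, beside 1.199, 2.12, 1.34 and 1 per red-cell barcode. Tubb3 was counted at 1.599, 4.07, 3.62 and 3.48 per high-Nes cell, beside 0.391, 1.42, 0.717 and 0.647. Stmn3 was counted at 0.518, 1.46, 1.99 and 1.46 per high-Nes cell, beside 0.0961, 0.542, 0.207 and 0.0588. These 3 genes had intervals above that of red-cell barcodes in every library. Tubb2a was above them in 3 libraries and overlapped them in MGE. Ina was counted at 0.0815, 0.104, 0.0957 and 0.215 per high-Nes cell. Per red-cell barcode it was at 0.0256, 0.1695, 0.0566 and 0.0588, and the intervals overlapped in every library. These barcodes held only 4, 10, 3 and 1 Ina UMIs and 0, 4, 1 and 0 Nefl UMIs in all. With so few counts an overlap cannot show that Ina or Nefl was absent from progenitors. Nefm was above free RNA in LGE and MGE, Stmn2 in MGE and Mapt in CTX. Relative to the RNA in the droplet the order differed. As CPM, with globin left out, red-cell barcodes held Tubb3 at 269.6, 983, 502 and 355 CPM in CTX, LGE, MGE and CGE, beside 186, 477, 374 and 381 CPM in high-Nes cells. On that scale Tubb2b alone was above red-cell barcodes in all 4 libraries. The levels of the other members in high-Nes cells are accordingly given as upper values, and how much of each was free RNA was not tested.

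**Figure D1:**
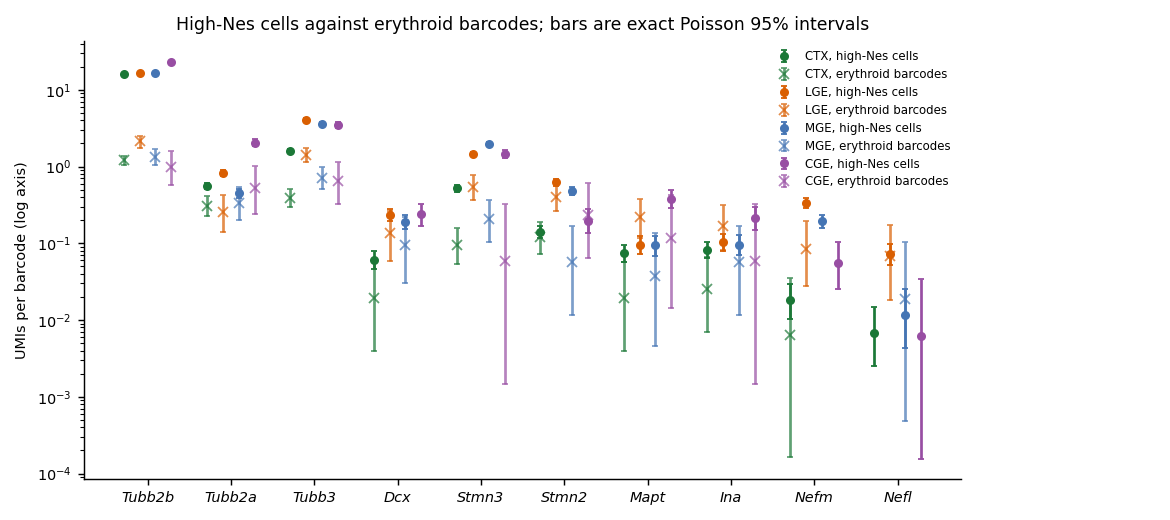
UMIs per barcode of each gene (log axis) in high-Nes cells (circles) and in red-cell barcodes with at least 50% globin UMIs (crosses), by library, with exact Poisson 95% intervals; red-cell barcodes with 0 UMIs are not drawn. The intervals of Tubb2b, Tubb3 and Stmn3 lie above those of red-cell (erythroid) barcodes in all 4 libraries, and those of Ina, Dcx and Nefl overlap them or meet 0 UMIs. Dcx was held low in high-Nes cells by the gate.

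All 9 tested members rose from high-Nes to postmitotic cells, and did so in 4 of 4 libraries. In this comparison 34.8% of the 12576 genes tested were called higher and 33.1% lower (edgeR quasi-likelihood test, library as a block, Benjamini-Hochberg adjusted p below 0.05). The median log2 fold change of the members was 3.64, beside 0.03 over all genes tested. The members are genes of neurons, chosen with earlier results of these data known, so the direction of this change was not an open question. The study had already named Mapt, Tubb2a, Tubb3, Ina and Stmn2 among genes of postmitotic cells. The 4 libraries come from different regions, so the p-values weigh a change against its spread across regions.

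The tubulins differed most in where they started. Tubb2b, a widely used beta-tubulin of the developing brain, was at 1853 (CTX), 1940.5 (LGE), 1699 (MGE) and 2534 (CGE) CPM in high-Nes cells. In postmitotic cells it was at 5268, 5968, 6089.8 and 7006 CPM in the same order. Its progenitor level was thus already 35.2, 32.5, 27.9 and 36.2% of the neuronal level, the highest share of the 10 members in CTX, LGE and CGE. The rise was 1.70 ± 0.08 (log2 fold change ± SE, adjusted p = 3.4e-09), the smallest of the 9. Tubb2b did not pass over the first step, from high-Nes to cycling low-Nes cells, at 0.02 ± 0.08 (adjusted p = 0.90).

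Tubb3, the neuron-specific beta-tubulin, passed the test at every step. It was at 186 (CTX), 477 (LGE), 374 (MGE) and 381 (CGE) CPM in high-Nes cells and at 620.3, 1172, 1353 and 997 CPM in cycling low-Nes cells, where Dcx was still below its limit. It then stood at 2384, 2621, 2629 and 2649 CPM in cycling high-Dcx cells and 3075, 4434, 4078 and 4358 CPM in postmitotic cells. The counting intervals of consecutive stages did not overlap in any library. Tubb3 reached 20.2, 26.4, 33.2 and 22.9% of its postmitotic level while cells lacked high Dcx and carried Mki67, and 77.5, 59.1, 64.5 and 60.8% in cycling cells with high Dcx. After thinning each cell to 3000 UMIs, 37.7%, 51.6%, 55.2% and 62.7% of high-Nes cells held a Tubb3 UMI (67.3%, 78.2%, 83.5% and 89.4% unthinned). Among non-neural cells the shares were 11.1%, 16.7%, 25% and 35.3% of 45, 6, 28 and 17 cells, with median depths of 9967, 17185, 10226 and 7342 UMIs beside 8572, 8487, 9927 and 9434 in the high-Nes cells.

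Tubb2a followed another course. It was at 65.7 (CTX), 97.6 (LGE), 45.96 (MGE) and 223 (CGE) CPM in high-Nes cells, at 58.8, 54.6, 31.8 and 124 CPM in cycling low-Nes cells, at 177, 93.97, 130.3 and 355 CPM in cycling high-Dcx cells and at 386, 436, 360.3 and 862 CPM in postmitotic cells. The lowest stage was cycling low-Nes in all 4 libraries. The difference over the first step was -0.53 ± 0.20 (adjusted p = 0.10), lower in 4 of 4 libraries but not past the threshold. Without CTX it was -0.73 (adjusted p = 0.047). The later rise was 1.55 ± 0.20 over the next step and 1.46 ± 0.20 over the last (adjusted p = 0.00018 and 0.00013).

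**Figure D2:**
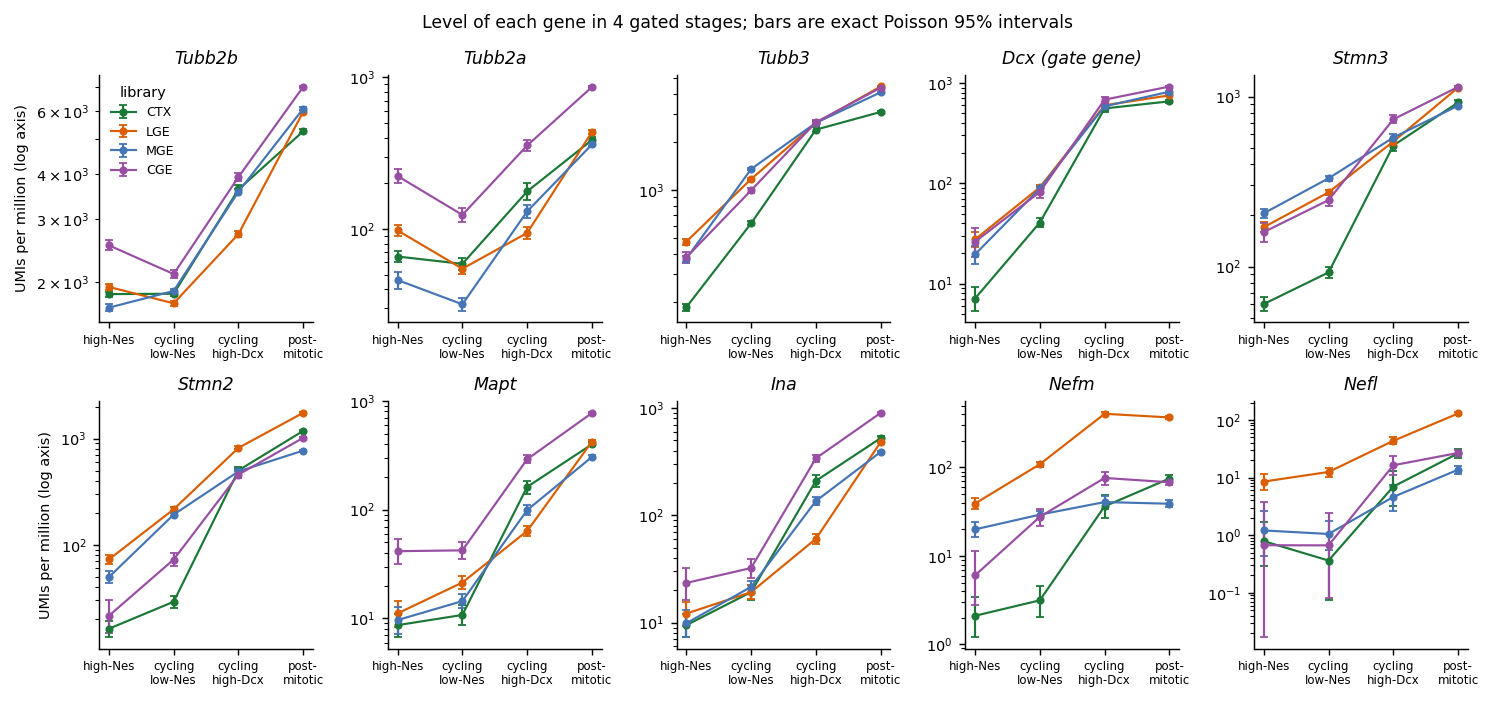
Level of each of the 10 genes (CPM, log axis) in high-Nes, cycling low-Nes, cycling high-Dcx and postmitotic cells of each library, with exact Poisson 95% intervals; Dcx helped to set the stages. Tubb2b begins at 1699 to 2534 CPM, Tubb3 climbs at each stage, Tubb2a is lowest in cycling low-Nes cells, and Nefm lies between 29.3 and 40.7 CPM over the last 3 stages in MGE.

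Of the microtubule-binding proteins, Dcx was part of the gates and is given as a level only. It stood at 7.11 (CTX), 27.5 (LGE), 19.6 (MGE) and 26.1 (CGE) CPM in high-Nes cells and at 656, 752, 818 and 921 CPM in postmitotic cells. Mapt, which encodes the axonal protein tau, was late. It was at 8.69 (CTX), 11.1 (LGE), 9.68 (MGE) and 41.5 (CGE) CPM in high-Nes cells, 10.8, 21.4, 14.4 and 42.3 CPM in cycling low-Nes cells, 162, 63.7, 99.2 and 291 CPM in cycling high-Dcx cells and 399, 423, 305 and 774 CPM in postmitotic cells. Its level in cycling high-Dcx cells was 40.5, 15.1, 32.5 and 37.6% of the postmitotic level. More of the increase in CPM thus lay after the last Mki67-positive stage than before it, most clearly in LGE. On the log2 scale the last step exceeded the middle step in LGE alone (2.73 against 1.57). The first step was not called, at 0.60 ± 0.31 (adjusted p = 0.22), and the later steps were, at 2.80 ± 0.28 and 1.69 ± 0.26 (adjusted p = 5.0e-05 and 0.00032). Over the whole span Mapt rose by 5.09 ± 0.31 (adjusted p = 2.0e-08).

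The stathmins parted from each other. Stmn3 was at 60.2 (CTX), 170.3 (LGE), 206 (MGE) and 159 (CGE) CPM in high-Nes cells and 923, 1129, 884 and 1139 CPM in postmitotic cells. Stmn2, known for its role in axon growth, was at 16.2 (CTX), 72.7 (LGE), 49.6 (MGE) and 21.4 (CGE) CPM in high-Nes cells, 29.1, 216, 192 and 72.6 CPM in cycling low-Nes cells, 502, 817, 490.5 and 458 CPM in cycling high-Dcx cells and 1182, 1749, 771 and 1017 CPM in postmitotic cells. As a share of the neuronal level, high-Nes cells had 6.52, 15.1, 23.3 and 14.003% for Stmn3 and 1.37, 4.16, 6.43 and 2.11% for Stmn2. Stmn2 rose over the first step by 1.72 ± 0.43 (adjusted p = 0.024), a call lost without LGE, MGE or CGE (adjusted p = 0.14, 0.13 and 0.12). Stmn3 did not pass at that step, at 0.75 ± 0.27 (adjusted p = 0.092). Over the whole span the rise was 5.18 ± 0.48 for Stmn2 and 2.997 ± 0.29 for Stmn3 (adjusted p = 7.4e-07 and 1.3e-06).

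Among the filament genes, Ina showed the largest rise of the 9, 5.52 ± 0.30 (adjusted p = 1.0e-08). It was at 9.48 (CTX), 12.2 (LGE), 9.88 (MGE) and 23.4 (CGE) CPM in high-Nes cells and 19.3, 19.3, 21.5 and 32.3 CPM in cycling low-Nes cells. In cycling high-Dcx cells it was at 209.9, 60.5, 136 and 340.4 CPM, and in postmitotic cells at 525, 483, 390.1 and 902 CPM. Ina and Mapt ran close together, and in cycling high-Dcx cells Ina stood at 40.01, 12.53, 34.9 and 37.7% of its postmitotic level. Nefl was at 0.7899 (CTX), 8.505 (LGE), 1.21 (MGE) and 0.6699 (CGE) CPM in high-Nes cells, from 6, 42, 6 and 1 UMIs, and at 26.3, 129, 13.7 and 26.7 CPM in postmitotic cells. Nefl rose over the whole span by 4.28 ± 0.38 (adjusted p = 5.7e-07).

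Nefm, the medium chain, was no higher in postmitotic than in cycling high-Dcx cells in the 3 eminences. It was at 2.11 (CTX), 39.1 (LGE), 19.96 (MGE) and 6.03 (CGE) CPM in high-Nes cells, 3.15, 109, 29.3 and 27.7 CPM in cycling low-Nes cells, 36.4, 404, 40.7 and 76.1 CPM in cycling high-Dcx cells and 74.97, 368, 38.9 and 68.1 CPM in postmitotic cells. In the 3 eminences the cycling high-Dcx level was 110%, 104% and 112% of the postmitotic one, and in CTX 48.6%. The last step was 0.18 ± 0.51 (adjusted p = 0.83), with 1 of 4 libraries higher. In MGE, high-Nes cells already held 51.3% [40.8–63.9] of the low postmitotic level. The rise over the whole span was 3.10 ± 0.59 (adjusted p = 0.00041), the least certain of the 9.

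Step by step, 2 of 9 members were called higher from high-Nes to cycling low-Nes cells (Tubb3, 1.66 ± 0.16, adjusted p = 0.00052, and Stmn2), beside 8.30% of all genes. In that step 0 members were called lower, beside 3.63% of all genes. The count was 1 without MGE or CGE and 3 without CTX, and without LGE the 2 called were Tubb3 and Ina. From cycling low-Nes to cycling high-Dcx cells all 9 were called higher, beside 18.3% of all genes, with 16% called lower. Those fold changes ran from 0.91 ± 0.08 for Tubb2b to 2.88 ± 0.27 for Ina, with 2.80 ± 0.28 for Mapt and 2.40 ± 0.42 for Stmn2 near the top. The Dcx limit alone set these 2 stages apart. Across the sums of stages and libraries the other members ran with Dcx, at Pearson r of 0.688 (Tubb2a) to 0.986 (Tubb3). A rise of genes that run with Dcx was thus partly built into that step, and how much was not tested. The Nefm call of that step (1.68 ± 0.53, adjusted p = 0.027) was lost without LGE or without CGE (adjusted p = 0.16 and 0.10) and after thinning to 3000 UMIs (1.02, adjusted p = 0.12). Without the library block the count was 6, with Tubb2a, Nefm and Nefl lost (adjusted p = 0.057, 0.27 and 0.16). From cycling high-Dcx to postmitotic cells 7 of 9 were called higher, beside 14.4% of all genes, with 16.8% called lower. Here Ina (1.70 ± 0.25), Mapt, Tubb2a and Nefl (1.41 ± 0.32) rose most, and Tubb3 least (0.56 ± 0.16, adjusted p = 0.017). The Tubb3 and Stmn3 calls of the last step were lost without LGE, MGE or CGE, which left 5 of 9. The Nefl call there was lost at a Dcx limit of 2.0 (0.60, adjusted p = 0.35) and after thinning (1.07, adjusted p = 0.057). Stmn2 missed the threshold there at 1.06 ± 0.39 (adjusted p = 0.056), and without CTX it passed at 0.94 (adjusted p = 0.013).

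**Figure D3:**
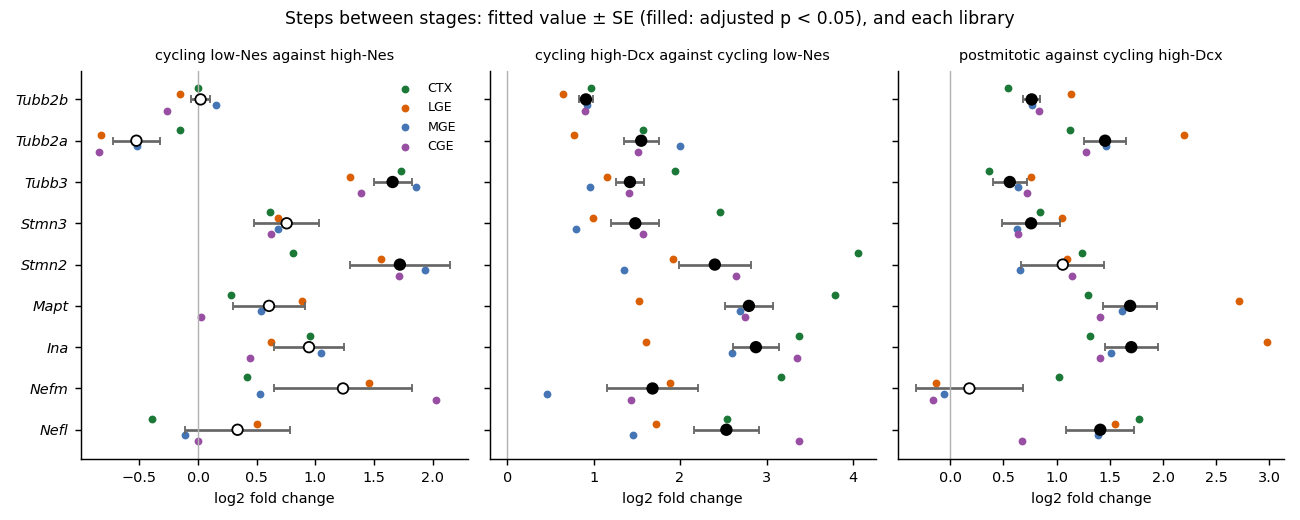
Log2 fold change of the 9 tested genes over the 3 consecutive steps: large circles are the fitted value ± SE, filled where the adjusted p is below 0.05, and small coloured points are the log2 ratios within each library. In the first step 2 circles are filled, in the middle step all 9, and in the last 7; Nefm lies at 0.18 and Stmn2 at 1.06 in the last.

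A finer order came from a maturity score, the mean ln(1 + UMIs per 10000) of 12 neuronal genes minus that of 10 progenitor genes. None of these genes was a member or a gate gene. In CTX the median score was -0.845 in high-Nes, -0.685 in cycling low-Nes and 0.730 in cycling high-Dcx cells. High-Nes and cycling low-Nes cells had medians of -1.13 and -0.331 in LGE, -1.05 and -0.0942 in MGE, and -1.21 and -0.380 in CGE. All kept cells were cut into 10 bins of the score, and for each library the bin was interpolated at which a gene first reached 50% of its highest bin. Tubb3 reached this point at 4.99 (CTX), 4.47 (LGE), 4.66 (MGE) and 4.85 (CGE). Dcx lay close to it, at 5.41 (CTX), 4.05 (LGE), 4.97 (MGE) and 4.65 (CGE). Tubb2b lay at 6.67 (CTX), 5.68 (LGE), 5.61 (MGE) and 5.29 (CGE), with Stmn3 at 7.68 (CTX), 5.78 (LGE), 5.84 (MGE) and 5.34 (CGE). At the other end stood Mapt, at 8.83 (CTX), 7.91 (LGE), 9.04 (MGE) and 7.53 (CGE), and Nefl, at 8.48 (CTX), 9.06 (LGE), 9.49 (MGE) and 9.39 (CGE). Ina lay at 8.44 (CTX), 8.32 (LGE), 9.11 (MGE) and 7.46 (CGE), within 1 bin of Mapt in all 4 libraries. No interval was computed for a position, so genes less than 1 bin apart are not ordered here. At the 50% limit this leaves Dcx and Tubb3 unordered in every library. Mapt, Ina, Nefl, Stmn2 and Tubb2a lay over 1 bin after Tubb3 in all 4. Tubb2a lay at 8.59 (CTX), 7.26 (LGE), 8.32 (MGE) and 6.75 (CGE), within 1 bin of Mapt in all 4 libraries. The places of Tubb2b and Dcx depended on the 50% limit. At 25%, Tubb2b had reached the limit in bin 1 in CTX, LGE and CGE, where Tubb3 lay at 3.91, 3.19 and 3.53. In MGE Tubb2b then lay at 4.12 and Tubb3 at 3.41. At 75%, Dcx lay at 6.23 and Tubb3 at 7.76 in CTX, and they were less than 1 bin apart in LGE, MGE and CGE. The score bins are ranges of a score and not cell types.

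Some members changed place between libraries. Nefm reached its midpoint at 7.696 (CTX), 4.53 (LGE), 9.43 (MGE) and 5.07 (CGE). In LGE it was at 216, 459.7 and 438 CPM in bins 4 to 6, at 253 and 242 CPM in bins 7 and 8, and at 401 and 688 CPM in bins 9 and 10, so there were 2 rises with a trough between them. In CGE a smaller early maximum of 85.6 CPM in bin 6 was followed by 46.8 CPM in bin 9 and 103 CPM in bin 10. In MGE Nefm stayed between 15.3 and 33.6 CPM up to bin 9 and was at 177 CPM in bin 10. Stmn2 reached its midpoint at 8.59 (CTX), 5.75 (LGE), 8.41 (MGE) and 7.79 (CGE), earliest in LGE.

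The last bin set Nefl apart. From bin 9 to bin 10 Nefl went from 3.305 to 139 CPM in MGE, from 13.5 to 76.8 CPM in CGE, from 210.1 to 450.2 CPM in LGE and from 18.5 to 35.2 CPM in CTX. Tubb2a was low early along the score too, going from 118 CPM in bin 1 to 20.1 CPM in bin 3 of LGE, from 55.98 to 19.1 CPM in MGE and from 256 to 56.6 CPM in CGE. In CTX it went from 77.6 to 50.7 CPM in bin 5. By bin 10 Tubb2a was at 598 (CTX), 693 (LGE), 942 (MGE) and 1124 (CGE) CPM.

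**Figure D4:**
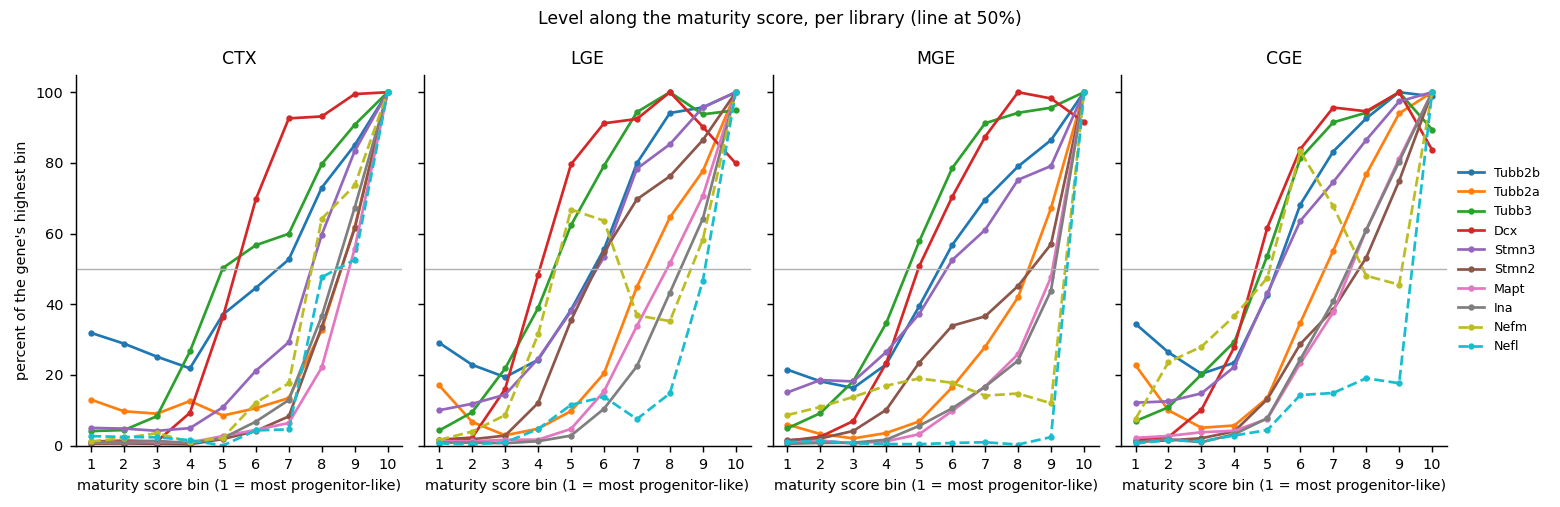
Level of each gene as a percentage of its highest bin (vertical axis) along 10 bins of the maturity score (horizontal axis, 1 is most progenitor-like), by library, with a line at 50%. Tubb3 and Dcx cross the line at bins 4.05 to 5.41. Nefl (dashed) crosses it last in LGE, MGE and CGE, by less than 1 bin in LGE and MGE. Nefm (dashed) crosses it at 4.53 in LGE and 9.43 in MGE.

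Single cells held more of the set as they matured. After thinning to 3000 UMIs, a UMI of at least 7 of the 9 members other than Dcx was found in 26.98%, 36.7%, 17.4% and 52.7% of postmitotic cells of CTX, LGE, MGE and CGE (40.0%, 57.7%, 31.4% and 72.5% unthinned). In high-Nes cells the share was between 0 and 0.714%. Of 45, 6, 28 and 17 non-neural cells, 0 reached 7 members after thinning, where 3 counts of the total allow shares of up to 6.67%, 50%, 10.7% and 17.6%. Unthinned, the non-neural shares were 0 in CTX and MGE, 16.7% in LGE (1 of 6) and 5.88% in CGE (1 of 17). Ina was detected in 51.1%, 46.9%, 46.6% and 77.6% of thinned postmitotic cells, Mapt in 35.1%, 53.3%, 42.3% and 76.2%, and Nefl in 5.397%, 13.1%, 1.78% and 4.45%. Among the non-neural cells, Ina was found in 1, 0, 2 and 1 cells, Mapt in 1, 0, 1 and 3 and Nefl in 0 of each library.

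Among postmitotic cells the 2 neurofilament genes set the regions furthest apart. Nefl was at 26.3 (CTX), 129 (LGE), 13.7 (MGE) and 26.7 (CGE) CPM, and the LGE level was 9.42 [7.96–11.2] times that of MGE. Nefm was at 74.97 (CTX), 368 (LGE), 38.9 (MGE) and 68.1 (CGE) CPM, with a ratio of 9.45 [8.55–10.5] between the same libraries. These ratios depend on the Dcx limit, since above a Dcx of 2.0 Nefl was at 67.0 CPM in LGE and 14.2 CPM in MGE. For both genes LGE was highest and MGE lowest, and the intervals of CTX and CGE overlapped (CTX over CGE 0.985 [0.805–1.199] for Nefl and 1.101 [0.977–1.24] for Nefm). Mapt, Ina and Tubb2a were highest in CGE and lowest in MGE, with ratios of 2.54 [2.44–2.64], 2.31 [2.23–2.39] and 2.39 [2.31–2.48]. Stmn2 was highest in LGE, 2.27 [2.21–2.33] times MGE. The remaining 4 genes spanned less than 1.5-fold. Stmn3 had a ratio of 1.01 [0.984–1.03] between CGE and LGE, and Tubb3 was lower in CTX than in LGE, at 0.693 [0.681–0.706]. In all, 6 of 10 members spanned more than 2-fold between libraries, with the gate gene Dcx counted among the 10. No share of all genes with such a span is given, so the count cannot be set against a background. The cell mix and the maturity of these postmitotic cells differed too, with median scores of 1.04 (CTX), 0.844 (LGE), 0.666 (MGE) and 0.911 (CGE), and their part in the regional levels was not tested.

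The neurofilament levels in LGE varied with Dcx itself, and the values on either side of the limit describe the gate without a test. Among Mki67-negative LGE cells with low Nes, Nefl was at 356 CPM where Dcx was above 0 and up to 1.0, at 277 CPM just outside the limit (1.0 to 1.5), at 205 CPM just inside it (1.5 to 2.0) and at 67.0 CPM above 2.0. In LGE cells with 0 Dcx UMIs (347 cells) it was at 80.9 CPM. Nefm was at 647, 479, 475 and 281 CPM over the same 4 steps, and at 198 CPM with 0 Dcx UMIs. Tubb3 stood over the 4 steps at 3528, 4008, 4234 and 4598 CPM. In CGE Nefl was at 45.5, 43.9, 33.5 and 24.1 CPM over the same steps, and in MGE at 1.82, 11.9, 12.9 and 14.2 CPM. In CTX it was at 7.49, 16.8, 29.5 and 21.5 CPM.

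To ask whether neuron class went with these levels, postmitotic cells with a UMI of Ebf1 (a gene of striatal projection neurons) were compared with those with a UMI of Lhx6 (a gene of MGE-derived interneurons), but not of both, in LGE, MGE and CGE. Cells with Neurod2, Neurod6 or Trp73 were left out of both classes. The Ebf1 class held 502, 76 and 118 cells and the Lhx6 class 166, 1432 and 564. Nefl was at 278 (LGE), 216 (MGE) and 193 (CGE) CPM in Ebf1 cells (979, 116 and 180 UMIs). In Lhx6 cells it was at 7.92 (LGE), 0.778 (MGE) and 4.22 (CGE) CPM (8, 7 and 16 UMIs). Nefm was at 546 (LGE), 308 (MGE) and 269.9 (CGE) CPM in Ebf1 cells and at 60.4 (LGE), 24.5 (MGE) and 29.6 (CGE) CPM in Lhx6 cells. The groups did not overlap for either gene. Nefl was higher in Ebf1 cells by 6.30 ± 0.47 (log2, adjusted p = 0.00070) and Nefm by 3.35 ± 0.15 (adjusted p = 0.00013), in 3 of 3 libraries. These were 2 of 9 members called higher, beside 4.00% of 10109 genes, and 0 were called lower, beside 2.38%. The test has 2 residual degrees of freedom, and the spread is shared over genes.

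The other members did not separate these classes in the same way. Stmn2 was at 2242 (LGE), 2219 (MGE) and 1784 (CGE) CPM in Ebf1 cells and 1614 (LGE), 686 (MGE) and 1042 (CGE) CPM in Lhx6 cells, higher in 3 of 3 libraries (0.98 ± 0.23, adjusted p = 0.058). It passed the threshold in 8 of 15 alternatives, among them DESeq2 (adjusted p = 0.0051), thinning (0.0062) and leaving out MGE (0.019), so its call lay on the edge. Ina was at 659 (LGE), 1724 (MGE) and 1537 (CGE) CPM in Ebf1 cells and 678 (LGE), 290.3 (MGE) and 970 (CGE) CPM in Lhx6 cells, a difference of 1.05 ± 0.45 (adjusted p = 0.27). Mapt was at 469 (LGE), 1073 (MGE) and 1036 (CGE) CPM in Ebf1 cells and 860.5 (LGE), 232 (MGE) and 827 (CGE) CPM in Lhx6 cells. Tubb2a was at 466 (LGE), 873 (MGE) and 906 (CGE) CPM in Ebf1 cells and 789 (LGE), 305 (MGE) and 999.8 (CGE) CPM in Lhx6 cells. Both genes were lower in Ebf1 cells in LGE and higher in MGE. For Tubb3 the difference was 0.01 ± 0.15, for Tubb2b 0.13 ± 0.19 and for Stmn3 0.16 ± 0.19. Without LGE, Stmn2, Mapt and Ina were called as well, at 1.24, 1.27 and 1.62, which made 5 of 9.

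Maturity moved with class. The median score was 1.02, 1.33 and 1.35 in Ebf1 cells of LGE, MGE and CGE and 0.881, 0.641 and 0.890 in Lhx6 cells. In a comparison added after the data were seen, cells of score bins 9 and 10 alone were used (315, 68 and 98 Ebf1 cells, 61, 203 and 243 Lhx6 cells). Nefl was then at 385, 241 and 220 CPM in Ebf1 cells. In Lhx6 cells it was at 5.17, 0 and 4.17 CPM (2, 0 and 7 UMIs). Nefl and Nefm were again called, with Nefm at 3.61, and Stmn2 was called at 0.73 (adjusted p = 0.011). No fold is given for Nefl there, since 1 library had 0 UMIs.

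**Figure D5:**
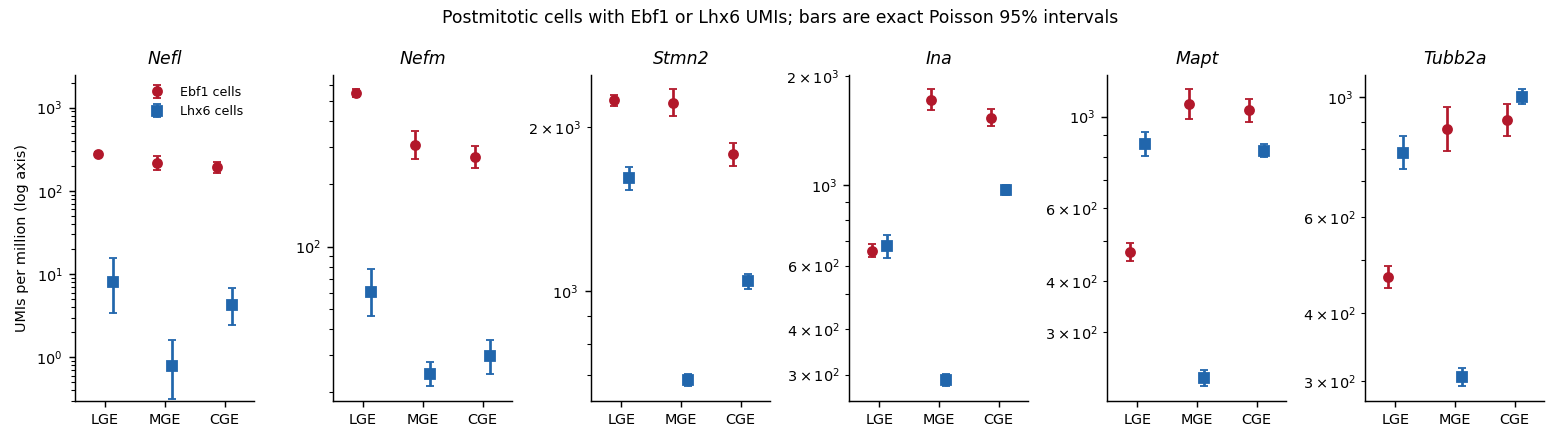
Level (CPM, log axes of differing range) of 6 genes in postmitotic cells with Ebf1 (circles) or Lhx6 (squares) UMIs in LGE, MGE and CGE, with exact Poisson 95% intervals. Nefl and Nefm are higher in Ebf1 cells of all 3 libraries, whereas Mapt and Tubb2a are lower in Ebf1 cells of LGE and higher in those of MGE.

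Neurofilament RNA was also counted in LGE cells that still carried Mki67. Cycling high-Dcx LGE cells with 0 Ebf1 UMIs (485 cells) held Nefm at 412 [393–432] CPM, and those with Ebf1 (63 cells) at 341 [293–395] CPM. For Nefl the same cells held 35.0 [29.6–41.0] and 114 [87.0–147] CPM. In MGE, 394 cycling high-Dcx cells without Ebf1 had Nefm at 34.1 [28.2–40.9] CPM and 1 UMI of Nefl, whereas the 12 with Ebf1 had 269 [176–394] and 155 [86.8–256] CPM. In CGE the values were 68.8 and 10.98 CPM in 187 cells without Ebf1, and 195 and 102 CPM in 11 cells with it. Early Nefm in LGE was thus present with and without Ebf1, while Nefl was higher with it in all 3 eminences. In MGE and CGE this rests on 12 and 11 cells (15 and 11 Nefl UMIs). Those cells held Mapt at 682 and 630 CPM and Ina at 1158 and 1074 CPM. All postmitotic cells there held Mapt at 305 and 774 CPM and Ina at 390 and 902 CPM. The gate asked for only 1 UMI of Mki67, and whether these cells were still dividing was not tested.

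Other postmitotic classes held neurofilament RNA at levels that varied with the library. Cells with Prox1, a gene of CGE interneurons, had Nefl at 77.6 (LGE), 5.43 (MGE) and 21.4 (CGE) CPM and Nefm at 451 (LGE), 16.3 (MGE) and 74.4 (CGE) CPM. In CTX, 594 cells with Neurod2 or Neurod6, genes of excitatory neurons, had Nefl at 27.2 CPM and Nefm at 77.9 CPM. The 30 Lhx6 cells in CTX stood apart from the Neurod cells there, with Mapt at 1448 against 343 CPM, Ina at 1539.6 against 478 CPM and Tubb2a at 1308 against 339.8 CPM. Classes in 1 library are given as values without a test.

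The wider cytoskeleton moved in both directions over the same span. Of 27 tested microtubule-associated genes, 24 rose and 1 fell from high-Nes to postmitotic cells (median log2 fold change 1.36), and of 15 motor genes 13 rose and 1 fell (median 1.46). Of 12 other tubulins, 5 rose and 6 fell (median -0.47). Among 16 genes of tubulin folding, modification and severing, 11 rose and 2 fell (median 0.54), and of 4 tested other intermediate filaments 0 rose and 3 fell (median -0.96). The background rate was 34.8% higher and 33.1% lower. The largest rises were those of the motors Kif21b (3.80 ± 0.33) and Kif5a (3.75 ± 0.21), the beta-tubulin Tubb4a (3.33 ± 0.17) and the semaphorin-signalling protein Crmp1 (3.05 ± 0.29). Each lay below Mapt, Stmn2 and Ina.

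The same lists differed by step. Microtubule-associated genes called higher numbered 10 of 27 in the first step, 20 in the middle step and 16 in the last, with 0, 0 and 1 called lower. Motor genes called higher numbered 6 of 15, 12 and 10, with 1, 0 and 0 called lower. Tubulins called higher numbered 4 of 12, 4 and 3, with 0, 2 and 5 called lower. Folding, modification and severing genes called higher numbered 1 of 16, 6 and 4, with 0, 1 and 2 called lower, and other intermediate filaments 0 of 4, 0 and 1, with 1, 1 and 3 called lower. Over all genes the shares called higher in these steps were 8.30%, 18.3% and 14.4%, and those called lower 3.63%, 16% and 16.8%, so several of these counts lie near the background. Between Ebf1 and Lhx6 cells, 2 of 26 microtubule-associated genes and 2 of 15 motor genes were called higher and 1 microtubule-associated gene lower, with 0 calls among 9 tubulins, 16 folding genes and 4 other filaments, beside 4.00% higher and 2.38% lower over all genes. Named after their values were seen, Map6 (2.01), Stmn4 (1.56), Dync1i1 (2.02) and Kif5c (1.39) were higher in Ebf1 cells, and Dclk2 (-1.76), a relative of Dcx, was lower.

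The largest falls came from genes of dividing cells and progenitors. The alpha-tubulin Tuba1c was at 119.5, 81.2, 51.6 and 42.9 CPM in high-Nes cells of CTX, LGE, MGE and CGE and at 3.95, 3.56, 1.97 and 1.50 CPM in postmitotic cells (-4.64 ± 0.20). In cycling high-Dcx cells Tuba1c was still at 92.2, 94.2, 85.6 and 52.8 CPM, where Tubb3 stood at 2384, 2621, 2629 and 2649 CPM. The alpha-tubulin Tuba1b went from 1544, 1482, 1275 and 1176 CPM to 299, 339, 242 and 291 CPM (-2.14 ± 0.12). The severing-family gene Fignl1 fell by 3.30 ± 0.21 on the log2 scale, and Vim, the filament of radial glia, went from 1309, 1531, 1812 and 1943 CPM to 463, 213, 427 and 224 CPM (-2.26 ± 0.23).

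Across the 16 sums of 4 stages and 4 libraries, Mapt and Ina were the members most alike with each other, with Pearson r of 0.986 on log2(CPM + 1), and Dcx and Tubb3 gave 0.986. Tubb2a and Nefm were least alike, at 0.369. The gene outside the set most like each member, out of 5374, was Soga3 for Dcx and for Tubb3 (r = 0.987 and 0.991), Sgip1 for Mapt (0.992), Grik5 for Tubb2a (0.973) and Kif3a for Tubb2b (0.984). For Stmn2 it was Nav1 (0.987), for Stmn3 Crmp1 (0.994) and for Ina Serinc1 (0.990). The neurofilament genes had less close matches, Syt6 for Nefm (0.942) and Islr2 for Nefl (0.929). The sums share libraries and gates, so these values describe the 16 sums and carry no test.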

How the data were processed

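The members and lists were chosen with earlier results of these data known. The deposited values were raw UMI counts per gene and barcode, made by the authors with Cell Ranger and mm10 (GRCm38) at default parameters; the file headers name version 3.0.2 and the submitters' processing notes 3.0.0; the annotation release was not given in the sources used here. There was 1 library per region. Cells had over 1500 and under 4500 genes, under 5% mitochondrial and under 1% Hbb UMIs, and the highest doublet scores were removed at 0.8% per 1000 barcodes (55 to 137 per library). Counts were summed per stage and library and tested with edgeR 4.0.16 (quasi-likelihood, TMM, filterByExpr, library block, Benjamini-Hochberg threshold 0.05) in R 4.3.3. All 16 stage sums entered 1 fit with 9 residual degrees of freedom. DESeq2 1.42.0, other normalization, filters, limits, depth and left-out libraries were alternatives. The fit was tested on simulated data. Gene positions came from GENCODE M21 by stable gene ID, which matched for all 10 members.

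Named genes were all 10 members, the 4 largest rises and 4 largest falls of the wider lists (adjusted p under 0.05, at least 50 CPM in 1 sum, same direction in 4 libraries), and the genes most like each member. Shares of cells were computed after thinning to 3000 UMIs and leave out shallower cells. Intervals are exact 95% intervals for counting error only. Non-neural cells had at least 3 genes of 1 list of endothelial, mesenchymal or microglial genes and were kept.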

Additional observations from a re-analysis of the deposited data

Results flagged for a closer look

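Values that ran in opposite directions in separate libraries, beyond their counting intervals, were drawn out. The difference between the libraries was not tested, since each region has 1 library. From high-Nes to cycling low-Nes cells, the log2 ratio of Tubb2b was -0.27 in CGE and 0.15 in MGE. From cycling high-Dcx to postmitotic cells, that of Nefm was -0.14 in LGE and 1.04 in CTX.

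Between Ebf1 and Lhx6 cells, Mapt had a log2 ratio of -0.87 in LGE and 2.21 in MGE, and Tubb2a one of -0.76 in LGE and 1.52 in MGE. Stmn3 stood at -0.29 in LGE and 0.69 in MGE, Tubb2b at -0.20 in LGE and 0.56 in MGE, and Tubb3 at -0.15 in CGE and 0.25 in MGE. All 5 were highest in MGE. The shares of Ebf1 and Lhx6 cells in score bins 9 and 10 were 89.5% and 14.2% in MGE, 83.1% and 43.1% in CGE and 62.7% and 36.7% in LGE, and their part in the ratios was not tested. In CGE the ratio was 0.32 for Mapt, -0.14 for Tubb2a, 0.05 for Stmn3 and 0.0003 for Tubb2b.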

How the results depend on the processing

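The count of 9 members called higher from high-Nes to postmitotic cells held under every alternative run, as did the count of 6 spanning 2-fold between regions. For the count of 6 no share over all genes is given. Members under 10% of their postmitotic level in high-Nes cells numbered 8 in CTX throughout, 5 in LGE (4 to 7), 6 in MGE (4 to 6) and 7 in CGE (5 to 7). The main counts include Dcx, at 1.08, 3.66, 2.39 and 2.84% in the same order, a share that the gates keep low. No share over all genes is given beside these counts. By position alone, members after Tubb3 on the score numbered 9 in CTX (8 to 9), 8 in LGE (7 to 8), 9 in MGE throughout and 8 in CGE (7 to 8). These counts take in gaps of less than 1 bin, which are not ordered here, such as those of Dcx in CTX and MGE. After thinning Nefm came before Tubb3 in LGE and CGE, by less than 1 bin in LGE. From high-Nes to cycling low-Nes cells the count of 2 became 1 without the library block, 1 at a Dcx limit of 1.0 and 5 at a limit of 2.0, and with 1 library left out it ran from 1 to 3; members called lower there ran from 0 to 1. From cycling high-Dcx to postmitotic cells the count of 7 became 2 without the block, and 5 to 8 with 1 library left out. Between Ebf1 and Lhx6 cells the count of 2 became 4 with no filter on low counts, and 2 to 5 with 1 library left out. The cause was not tested for these.

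Some values turned in direction. Tubb2b in the first step (0.02) was -0.0121 with DESeq2 size factors, -0.0115 with DESeq2, -0.0064 with no filter, -0.11 at a Dcx limit of 1.0, -0.0123 with doublets kept, -0.0849 with no upper gene limit and -0.0964 to 0.0864 with 1 library left out. Nefl in that step (0.34) ran from -0.24 to 0.42 with 1 library left out. Nefm in the last step (0.18) was -0.12 without the block, -0.35 at a Dcx limit of 2.0, and -0.22 to 0.47 with 1 library left out. Between Ebf1 and Lhx6 cells, Tubb3 (0.01) was -0.0206 with no filter, -0.0298 after thinning, -0.0028 at a Dcx limit of 2.0, -0.0044 with no upper gene limit and -0.11 to 0.0727 with 1 library left out. There Stmn3 (0.16) ran from -0.11 to 0.38, Mapt (0.54) from -0.26 to 1.27, Tubb2a (0.19) from -0.44 to 0.69 and Tubb2b (0.13) from -0.0912 to 0.29 with 1 library left out, and Tubb2a was -0.18 in score bins 9 and 10.

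Over all genes, the first step gave 1044 calls higher and 457 lower, and 98 and 9 without the block, 1250 and 1177 without CTX, 114 and 21 without LGE, 77 and 18 without MGE, 160 and 22 without CGE, 322 and 139 at a Dcx limit of 1.0, 409 and 308 after thinning, and 1007 and 690 with DESeq2. The last step gave 1817 and 2115, and 597 and 1321 without the block, 479 and 933 at a Dcx limit of 2.0, and 803 and 1065 without LGE. Ebf1 against Lhx6 cells gave 404 and 241, and 833 and 552 with no filter, 716 and 361 without LGE, and 143 and 91 without CGE. The library block pairs the stages within a library. Low counts limit Nefl most, with 1 to 42 UMIs in high-Nes cells.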
